A study of Mus musculus with 4 samples.

Results

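Ribosomes are built in the nucleolus, where RNA polymerase I (Pol I) transcribes the ribosomal DNA (rDNA) into a long precursor of the ribosomal RNAs (rRNAs). Small nucleolar ribonucleoproteins (snoRNPs) modify this precursor, a large processome cuts it and folds the small subunit, and a separate set of factors matures the large subunit. The whole process is costly for the cell and is known to follow nutrient supply. The transcripts described here encode Pol I subunits and nucleolar factors of each of these steps. They were chosen by a rule on gene names, with earlier results of these arrays known, and are every gene of the array whose name began with Nop, Nol, Utp or Rrp and a digit, or was that of Polr1a to Polr1e, Imp3, Imp4, Bop1, Pes1, Fbl, Ncl, Npm1, Npm3, Gar1, Dkc1, Nhp2, Ddx21, Wdr12, Wdr43 or Nolc1. These were 51 of the 31708 gene names on the array, measured by 71 probes. After a filter on dim probes, 47 of the 51 were tested, among 16053 genes tested in all. Nol4, Nol10, Utp14b and Utp18 had no probe bright enough, so no level is given for them.

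The mice were C57BL/6J males, 8 to 12 weeks old, and 2 groups of livers were compared. Fasted mice had no food for 24 h, and re-fed mice had no food for 24 h and then food for 2 h, so both groups had been through the fast and neither was fed throughout. RNA of 4 fasted and 4 re-fed livers was hybridised to 4 two-colour arrays, on which the RNA of 1 fasted and 1 re-fed liver, paired at random and labelled with different dyes, binds the same spots. The fasted liver carried the red dye Cy5 on replicates 1 and 2 and the green dye Cy3 on replicates 3 and 4. All ratios below are log2 ratios of the fasted over the re-fed liver of one array, so that a value below 0 is a lower level in the fasted liver. Each array is a replicate (n = 4), errors are SDs over the 4 ratios unless named otherwise, and a gene with several probes is represented by its brightest.

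The RNA came from whole liver pieces. All 7 hepatocyte markers (such as Alb and Apoa1) were well above background in every liver. The re-fed liver of replicate 3 also carried transcripts of pancreatic acinar cells, with all 12 acinar markers above background there and a summed brightness, here less the offset of 50 that the background correction adds to each probe, of 37549, against 837 to 1517 in the other re-fed livers and 880 to 2243 in the fasted livers. These 12 markers had a median ratio of -3.43 on replicate 3, whereas their medians for the other arrays ran from -0.03 to 0.02. The 3 erythroid markers had median ratios of 2.35 and 2.37 on replicates 1 and 3 and of -0.27 and 0.23 on replicates 2 and 4. The 6 macrophage markers had medians of 0.55, -0.24, 0.51 and -0.19 on replicates 1 to 4. No marker of the 9 cell types examined was called across arrays, although the endothelial marker Stab2 was above 0 on all 4 (mean 0.35, limma adjusted p = 0.0478). The part of these other cells in the ratios below was not tested, and counts without replicate 3 are given for the 47 genes and for the other lists. Fewer cells of a type and less RNA per cell cannot be told apart in such bulk samples.

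Most transcripts of ribosome biogenesis had ratios slightly below 0. The mean ratio lay below 0 for 41 of the 47 genes (87.2%), against 49.2% of all genes tested. Without replicate 3 it was 37 of 47, against 49.4% of all genes tested, and with the normexp background correction run over all spots it was 33 of 47, against 50.4%, the lowest count of all alternatives. Rrp12 and Utp15 passed the filter on dim probes only through the re-fed livers, and with both groups required above background the count was 39 of 45, against 48.3%. The median ratio of the 47 was -0.13, with quartiles of -0.28 and -0.05, while the median of all genes tested was 0.00 with quartiles of -0.11 and 0.12. Its size moved with the processing, from -0.065 with normexp over all spots to -0.25 with Agilent's processed signals. On single arrays the median of the 47 was -0.08, -0.19, -0.22 and -0.19 for replicates 1 to 4, and replicate 1 thus had the smallest shift. The share of the 47 below 0 was 61.7%, 80.9%, 74.5% and 72.3% in the same order. The ratio was below 0 on all 4 arrays for 17 of the 47 genes and above 0 on all 4 for 1 gene, Npm1, where 15.7% and 14.1% of all genes tested had one sign on all 4 arrays. No test was made of the median or of these counts, since these genes were chosen with earlier results of the same arrays known.

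**Figure D1:**
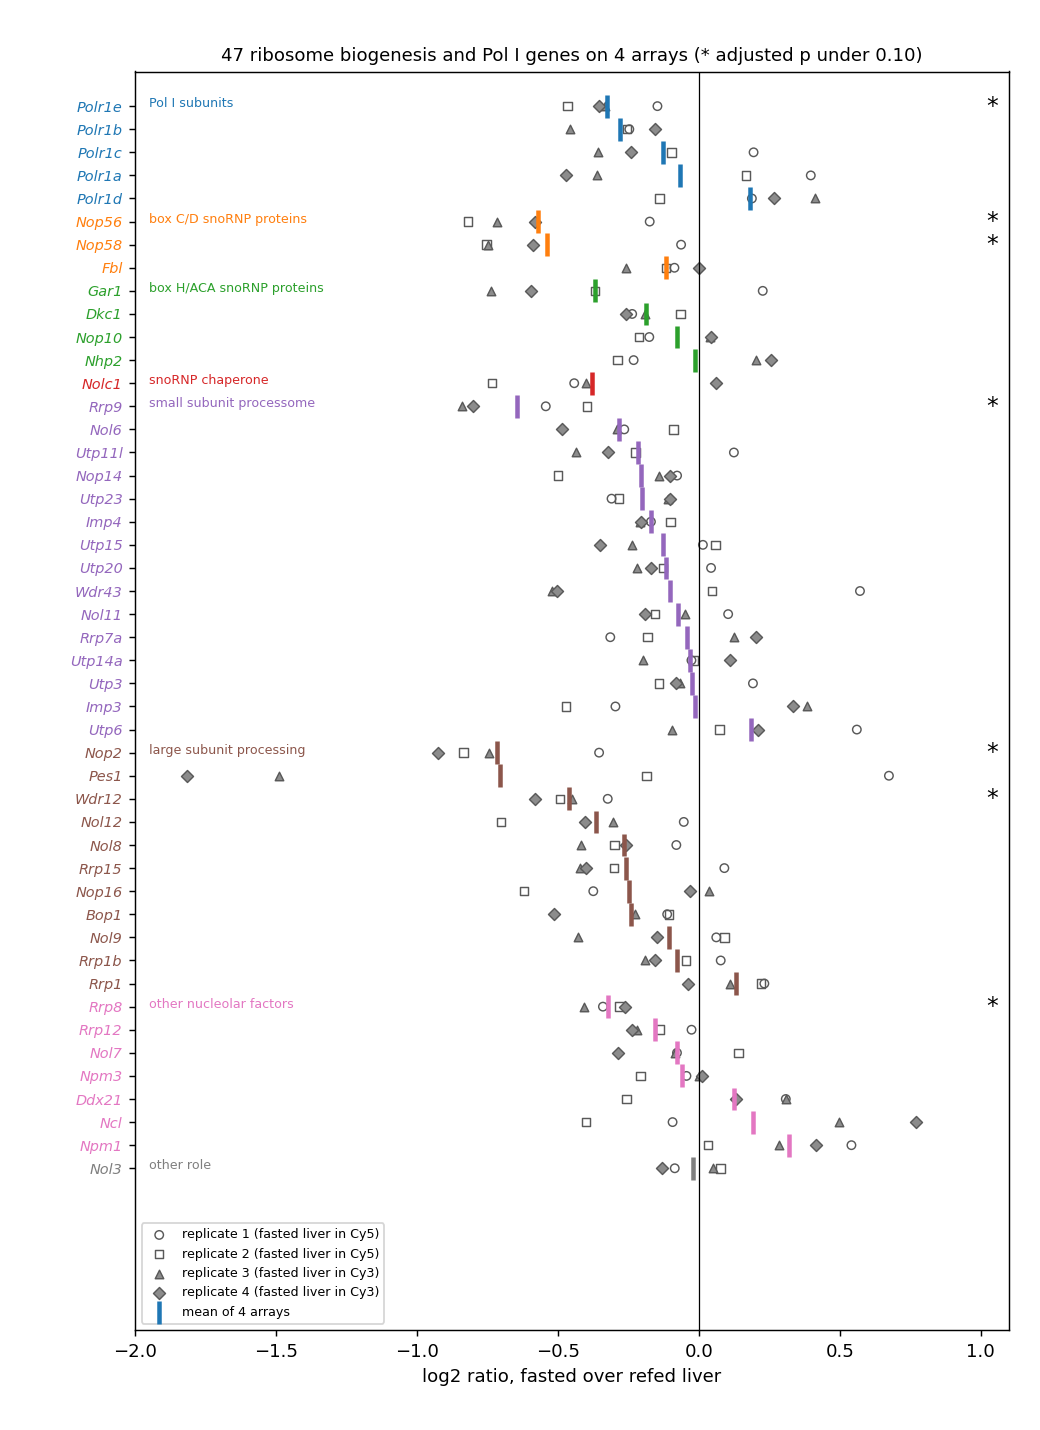
Log2 ratio of fasted over re-fed liver (x axis) for each of the 47 genes tested, grouped by role and ordered by their mean; open and filled symbols are the single arrays by dye orientation, coloured bars are means, and a star marks an adjusted p under 0.10. All 7 starred genes lie below 0, and Npm1 has the highest mean, at 0.32.

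With limma over all probes and Benjamini-Hochberg adjustment, 7 of the 47 genes were lower in the fasted livers at an adjusted p under 0.10, namely Nop2, Rrp9, Nop56, Nop58, Wdr12, Polr1e and Rrp8. This is 14.9% of the genes, against 6.29% of all genes tested. None of the 47 was higher at this limit, where 4.96% of all genes tested were. At an unadjusted p under 0.05 there were 17 lower genes (36.2%) and 1 higher gene (2.13%), Npm1, against 11.8% and 10.3% of all genes tested. A change of at least 1.5-fold was reached by 2 of the 7, Nop2 and Rrp9, which is 4.26% of the genes against 2.13% of all genes tested that were called lower. No gene was called higher at this fold, by limma or by a rebuilt SAM test, against 1.82% of all genes tested by limma. The highest mean of the 47, 0.32 for Npm1, lay under this fold, so that neither test could call a higher gene. Most shifts were therefore smaller than 1.5-fold. When one array was left out, between 1 and 9 genes passed at an adjusted p under 0.10, all lower. The lowest count came without replicate 3, when Nop2 alone passed, while 1.61% of all genes tested passed as lower, and the highest without replicate 1, when 5.63% did. The median ratio of the 47 genes was -0.13 without replicate 3, as with all arrays. Of the 7 genes, Nop2 passed whichever array was left out, Rrp9 and Wdr12 passed except without replicate 3 (adjusted p of 0.101 and 0.118), Nop56, Nop58 and Polr1e passed only without replicate 1, and Rrp8 in no set of 3 arrays (adjusted p from 0.116 to 0.225).

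**Figure D2:**
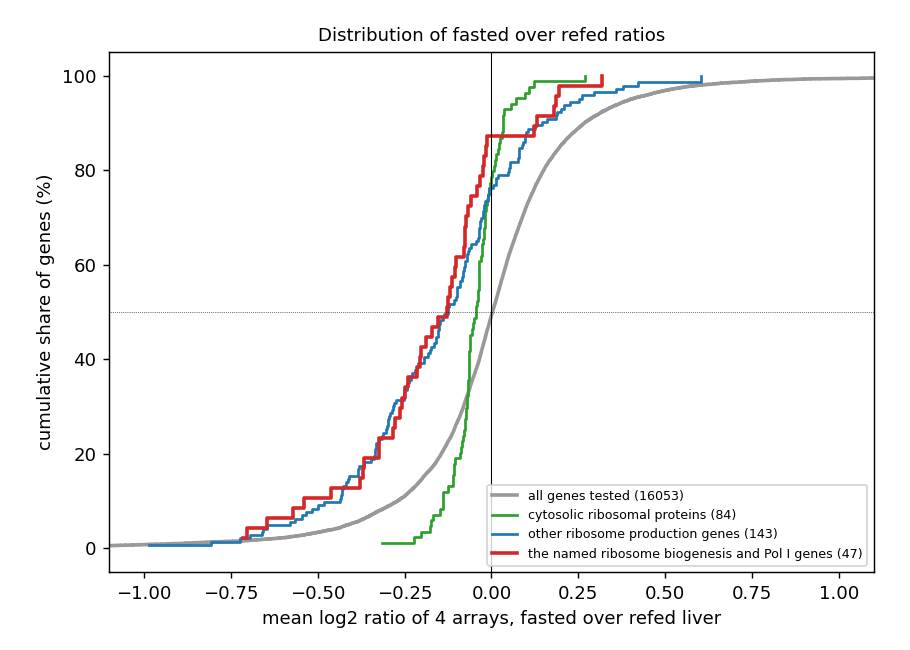
Cumulative share of genes (y axis, %) by mean log2 ratio of fasted over re-fed liver (x axis) for the 47 genes, for 143 other genes of ribosome production, for 84 cytosolic ribosomal protein genes and for all 16053 genes tested. The curve of the 47 genes lies to the left of that of all genes with a median of -0.13, and ribosomal protein genes lie in a narrow band with a median of -0.04.

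Among the 47 genes, the called gene with the lowest mean belongs to large subunit maturation. Nop2 encodes a nucleolar methyltransferase that modifies large subunit rRNA. Its normalised brightness was 791, 1246, 1213 and 1435 in the fasted livers of replicates 1 to 4 and 1011, 2223, 2031 and 2728 in the re-fed livers of the same arrays. The re-fed liver was brighter on each array, although that of replicate 1 lay within the range of the fasted livers. The log2 ratios were -0.35, -0.84, -0.74 and -0.93, with a mean of -0.71 ± 0.25 (SD, n = 4), which is 1.64-fold lower in the fasted liver (95% interval of the fit from -0.98 to -0.45, limma adjusted p = 0.0213). With normexp run over all spots the mean was -0.43, and Nop2 was then not called. The probe matches bases 125094661 to 125094720 of chromosome 6 (mm9).

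Wdr12, Pes1 and Bop1 encode the PeBoW complex, which is needed to process large subunit rRNA. Wdr12 was lower in the fasted liver on all arrays (-0.32, -0.49, -0.45 and -0.58, mean -0.46 ± 0.11, limma adjusted p = 0.0262). Bop1 had ratios of -0.11, -0.11, -0.23 and -0.51, and did not pass the test (adjusted p = 0.205). Pes1 depended on the dye orientation. Its ratios were 0.67 and -0.19 with the fasted liver in Cy5 and -1.49 and -1.82 with the fasted liver in Cy3, so that its mean of -0.70 had an SD of 1.16 and did not pass (limma adjusted p = 0.385), and a second, much dimmer Pes1 probe had a mean of -0.02. The complex therefore had 1 member past the test, 1 below 0 on all arrays without passing, and 1 whose dye term passed at an adjusted p under 0.10. Among the 11 genes of large subunit processing, 10 had means below 0, with a median of -0.26. Rrp1 was the exception at 0.13. Nol12 (-0.37), Nol8 (-0.26), Rrp15 (-0.26), Nop16 (-0.25), Nol9 (-0.11) and Rrp1b (-0.08) did not pass the test.

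In the small subunit processome, Rrp9 was called. It encodes a protein specific to the U3 snoRNP, the particle that guides the early cuts of the rRNA precursor. Brightness was 156, 208, 186 and 251 in the fasted livers and 227, 273, 332 and 438 in the re-fed livers of replicates 1 to 4. The re-fed liver was again brighter on each array, with an overlap between the groups through the dim replicate 1. The ratios were -0.54, -0.40, -0.84 and -0.80, with a mean of -0.65 ± 0.21, or 1.56-fold lower (95% interval from -0.88 to -0.41, limma adjusted p = 0.0213). Without replicate 3 the mean was -0.58 with an adjusted p of 0.101, and the gene was then not called. With normexp run over all spots the mean was -0.25, and Rrp9 was not called either. Imp3 and Imp4, also U3 proteins, did not pass the test. Imp4 had ratios between -0.21 and -0.10 (mean -0.17, adjusted p = 0.218), and Imp3 ratios of -0.30, -0.47, 0.38 and 0.33, which split by dye orientation. Of the 15 processome genes tested, 14 had means below 0, with a median of -0.12. Apart from Rrp9 they lay between -0.28 (Nol6) and 0.19 (Utp6), and none of these 14 passed the test. The Utp genes tested, which encode proteins of the processome, had means from -0.21 (Utp11l) to 0.19 (Utp6).

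The box C/D snoRNPs guide the methylation of rRNA riboses, and their core holds fibrillarin (Fbl, the methyltransferase), Nop56 and Nop58. Nop56 and Nop58 were both lower in the fasted livers, with mean ratios of -0.57 and -0.54. Nop56 had a brightness of 1097, 1200, 1296 and 1738 in fasted and 1237, 2115, 2127 and 2599 in re-fed livers, and ratios of -0.17, -0.82, -0.71 and -0.58 (SD 0.28, limma adjusted p = 0.0457). At 1.49-fold it lay just under the fold limit, and its 2 other probes had means of -0.53 and -0.48. The first of these gave ratios of -0.53, -0.67, -0.69 and -0.21 (limma adjusted p = 0.0385). The second gave 0.15, -0.62, -0.78 and -0.67 (limma adjusted p = 0.148), so that the pattern over the arrays depends on the probe. Nop58 had a brightness of 639, 821, 754 and 849 in fasted and 668, 1383, 1268 and 1276 in re-fed livers, and ratios of -0.06, -0.75, -0.75 and -0.59 (SD 0.33, limma adjusted p = 0.069). By their brightest probes, both genes moved little on replicate 1 and by similar amounts on the other arrays. Without replicate 1 their means were -0.70 and -0.70 and both were called (limma adjusted p of 0.0230 and 0.0221), and without each of the other arrays neither passed (adjusted p from 0.140 to 0.238). Fbl, the enzyme of the complex, did not pass, with ratios of -0.09, -0.12, -0.26 and 0.00 and a mean of -0.11 ± 0.11 (adjusted p = 0.457). Whether Fbl differed from Nop56 and Nop58 was not tested.

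The box H/ACA snoRNPs guide the conversion of uridine to pseudouridine in rRNA, with dyskerin (Dkc1) as the enzyme and Gar1, Nhp2 and Nop10 as its partners. None of the 4 passed the test, and all 4 had means below 0. Gar1 had the lowest mean (0.23, -0.37, -0.74 and -0.60, mean -0.37, limma adjusted p = 0.254), and it passed at an adjusted p under 0.10 when replicate 1 was left out. Dkc1 was below 0 on all arrays (-0.24, -0.07, -0.19 and -0.26, adjusted p = 0.204). Nop10 (mean -0.08) and Nhp2 (mean -0.02) had ratios below 0 on replicates 1 and 2 and above 0 on replicates 3 and 4, the 2 dye orientations. Nolc1, a chaperone that escorts both kinds of snoRNP, had ratios of -0.44, -0.73, -0.40 and 0.06 (mean -0.38, adjusted p = 0.16), and did not pass the test. Its second probe gave -0.06, -0.13, -0.84 and -0.76 (mean -0.45, adjusted p = 0.163), another pattern over the arrays, and its dye term passed (adjusted p = 0.0372).

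Of the 5 Pol I subunits chosen by name, 1 passed the test. Polr1e, a subunit that belongs to Pol I alone and helps it to initiate, had ratios of -0.15, -0.47, -0.33 and -0.35 (mean -0.32 ± 0.13, limma adjusted p = 0.0722). Its second probe gave -0.26, -0.44, -0.50 and -0.60, with a mean of -0.45 and an adjusted p of 0.0351, so that both probes put it lower in the fasted liver on each array. Polr1b, the second largest subunit, was lower on each array too but missed the limit (-0.25, -0.25, -0.46 and -0.15, mean -0.28, adjusted p = 0.105). Polr1a, the largest subunit, had ratios of 0.40 and 0.17 with the fasted liver in Cy5 and of -0.36 and -0.47 with it in Cy3, so that its sign changed with the dye and its mean was -0.07 (adjusted p = 0.871). Polr1c and Polr1d are shared with RNA polymerase III. Polr1c was printed on 10 spots of each array, which allows the error of a single array to be seen. The array means of 0.19, -0.10, -0.36 and -0.24 had SDs over the 8 to 10 usable spots of 0.10, 0.17, 0.14 and 0.19, smaller than the SD of 0.24 over the 4 arrays. Polr1c did not pass the test (mean -0.13, adjusted p = 0.57). Polr1d was the only one of the 5 with a mean above 0 (0.19, -0.14, 0.41 and 0.27, mean 0.18, adjusted p = 0.386). Its second probe had a mean of 0.01, with ratios of -0.15 and -0.18 in one dye orientation and of 0.10 and 0.26 in the other.

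Among the remaining nucleolar factors, Rrp8 (nucleomethylin) passed the test. It methylates large subunit rRNA and is also known as part of a complex that silences rDNA when energy is short. Its ratios were among the most even of the 47 genes, at -0.34, -0.28, -0.41 and -0.26 (mean -0.32 ± 0.07, limma adjusted p = 0.0527). Nucleophosmin (Npm1) and nucleolin (Ncl), 2 of the most abundant nucleolar proteins, had means above 0 by their brightest probes. Npm1 had ratios of 0.54, 0.03, 0.28 and 0.42 by its brightest probe (mean 0.32, adjusted p = 0.129), and means of 0.29, 0.28, 0.24 and 0.03 by its 4 other probes, none past the test. Ncl had ratios of -0.09 and -0.40 with the fasted liver in Cy5 and of 0.50 and 0.77 with it in Cy3 (mean 0.19, adjusted p = 0.646), so that its sign changed with the dye, and its second probe had a mean of 0.02. Ddx21, an RNA helicase that joins Pol I transcription to processing, had a mean of 0.12 by its brightest probe and of -0.24 by a dimmer probe that was below 0 on all arrays, so that its direction depends on the probe. Rrp7a was the other gene whose probes had means on both sides of 0, at -0.04, -0.07 and 0.01. Rrp12 (-0.15), Nol7 (-0.08) and Npm3 (-0.06) did not pass. Nol3, which shares the name pattern but encodes an inhibitor of cell death, had ratios from -0.13 to 0.08.

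Each result above rests on a dye swap with a pair of arrays in each orientation. A dye term passed at an adjusted p under 0.10 for 8 of the 47 genes, or 17.0%, against 15.4% of all genes tested. Pes1, Wdr43, Polr1a, Imp3, Ncl, Nhp2, Rrp7a and Nop16 were these genes, and none of the 7 genes that passed the test of fasting was among them. That test held no dye term, so a dye effect widened the spread of a gene and made it harder to pass. The lack of overlap therefore does not show that the 7 genes are free of dye effects. Means were below 0 in both orientations for 26 of the 47 genes (55.3%), against 26.8% of all genes tested. The median of the 47 was -0.11 with the fasted liver in Cy5 and -0.21 with it in Cy3. When the dye term was added to the model, 20 of the 47 genes passed at an adjusted p under 0.10 as lower and 1, Npm1, as higher, while 13.9% and 13% of all genes tested passed in these directions. Pes1 was among the 20 (adjusted p = 0.0241), although its ratio had opposite signs within the first orientation.

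**Figure D3:**
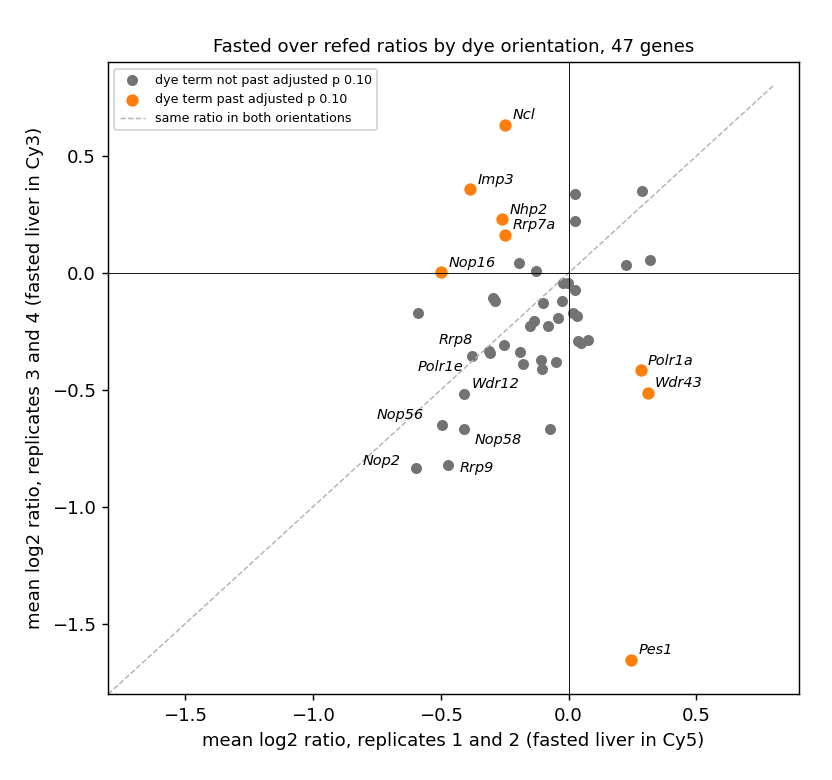
Mean log2 ratio of the 47 genes with the fasted liver in Cy5 (replicates 1 and 2, x axis) and in Cy3 (replicates 3 and 4, y axis); orange points are the 8 genes whose dye term passed at an adjusted p of 0.10, and the dashed line marks equal ratios. Nop2, Rrp9, Nop56, Nop58 and Wdr12 lie below 0 on both axes, and Pes1, Wdr43 and Polr1a change sign between them.

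Promoter sequences were set beside these values, since MYC and related factors bind the E-box CACGTG, and CREB binds the cAMP response element (CRE) TGACGTCA. RefSeq (GRCm38.p6) gave the 250 bases before and 50 bases after the start of 41 of the 51 genes. The E-box, which reads the same on both strands, was present in 9 of the 41 (22%), against 8.09% of 27025 genes in the table and in 7 of the 38 that were tested (18.4%), against 11.5% of all genes tested with an entry. The CRE, which also reads the same on both strands, was present in none of the 41, against 2.03% of all genes. The 7 genes with an E-box that were tested had a median ratio of -0.12, and the 31 without one had a median of -0.13. Of the called genes, Nop2 holds an E-box 60 bases before its start and Rrp9 holds none. Their promoters are shown first, followed by the bases around the E-box of the other 8 genes, all 5′ to 3′ on the strand of the gene with the E-box in capitals. Nop2 lies at chr6:125131633-125131932 on the plus strand and Rrp9 at chr9:106477059-106477358 on the plus strand. The window of Utp20 stops where its promoter entry ends.
Nop2: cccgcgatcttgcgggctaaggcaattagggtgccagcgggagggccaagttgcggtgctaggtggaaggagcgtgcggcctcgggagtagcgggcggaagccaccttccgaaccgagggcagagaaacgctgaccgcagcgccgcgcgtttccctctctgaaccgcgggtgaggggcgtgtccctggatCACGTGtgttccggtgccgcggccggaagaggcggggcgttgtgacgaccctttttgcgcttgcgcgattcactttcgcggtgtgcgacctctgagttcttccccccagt
Rrp9: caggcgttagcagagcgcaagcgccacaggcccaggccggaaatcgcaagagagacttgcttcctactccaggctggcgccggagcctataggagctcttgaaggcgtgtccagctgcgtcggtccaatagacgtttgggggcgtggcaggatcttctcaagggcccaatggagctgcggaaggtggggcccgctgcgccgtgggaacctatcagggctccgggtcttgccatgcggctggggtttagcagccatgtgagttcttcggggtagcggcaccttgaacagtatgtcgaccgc
Imp4: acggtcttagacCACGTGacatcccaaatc
Nol11: cttgagcgttcgCACGTGgtctagactcca
Pes1: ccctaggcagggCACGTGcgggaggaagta
Rrp7a: gtgcctgtgcacCACGTGtcctggaactgg
Utp14b: cgcgggcgcgggCACGTGggtggggtcgtc
Utp18: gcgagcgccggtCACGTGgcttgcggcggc
Utp20: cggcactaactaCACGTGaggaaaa
Wdr43: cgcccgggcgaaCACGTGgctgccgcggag
The E-box begins 121 bases before the start of Imp4, 43 before that of Nol11, 208 before that of Rrp7a, 63 before that of Utp14b and 20 before that of Utp18, and at base 3, 38 and 18 of the transcripts of Pes1, Utp20 and Wdr43. A match is a description of the letters and no evidence of binding.

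The wider machinery was described with lists of other genes, none of which holds any of the 51. Of 153 such genes of ribosome production on the array, the MYC network included, 143 were tested, of which 29 were lower and 2 higher at an adjusted p under 0.10 (20.3% and 1.40%, against 6.29% and 4.96% of all genes tested). At 1.5-fold, 7 were called lower (4.90%, against 2.13%) and 1 higher, against 1.82%, and the median ratio was -0.13. The median was the same to this precision as that of the 47 genes. Without replicate 3 there were 2 lower and 0 higher calls at 1.5-fold, where 1.31% of all genes tested were called lower and 1.14% higher. Without replicate 1 there were 13 lower and 1 higher calls, where 2.67% and 2.19% of all genes tested were called. At an adjusted p under 0.10, without replicate 3, Bysl, Pwp2 and Rpp38 of the 143 were lower (2.10%) and 0 were higher, against 1.61% and 1.32% of all genes tested, so that the share of lower genes was then near that of all genes. Of the 7 lower calls, Bysl and Rpp38 were made whichever array was left out. Mlx was not called without replicate 3 or 4, Polr2h without replicate 1, 2 or 3, Ddx31 and Ngdn without replicate 2 or 3, Pop7 without replicate 2, 3 or 4, and Xrn2 without replicate 3 or 4.

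Among the remaining Pol I subunits, 3 of 8 were lower at an adjusted p under 0.10, and all others had means between -0.19 and 0.05. Polr2h, which the nuclear RNA polymerases share, was called (-0.81, -1.03, -0.42 and -0.33, mean -0.65, limma adjusted p = 0.0446). Znrd1 (Polr1h), a subunit of Pol I alone that acts in cutting the transcript back, had a mean of -0.50 (adjusted p = 0.0546), and Polr2l, also shared, one of -0.38 (adjusted p = 0.0853). Of 9 factors of Pol I initiation, termination and rDNA chromatin, 2 were lower and none was called. Rrn3, through which growth signals recruit Pol I, had ratios of -0.18, -0.47, -0.26 and -0.30 (mean -0.30 ± 0.12, adjusted p = 0.0819), and Taf1c, a subunit of the promoter selectivity factor, ratios from -0.32 to -0.26 (adjusted p = 0.0584). Ubtf, which holds rDNA in an active form, had ratios of 1.40 and 1.22 with the fasted liver in Cy5 and of -0.09 and -0.13 with it in Cy3, and did not pass (mean 0.60, adjusted p = 0.303). With a dye term in the model it was called higher (adjusted p = 0.00365).

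In the MYC network, Mlx and Max were lower and none of the 10 genes was higher at an adjusted p under 0.10. At an unadjusted p under 0.05 these 2 were lower and 3 were higher, Mycl, Mlxip and Mnt, with means of 0.36, 0.19 and 0.19 and ratios above 0 on all 4 arrays. Mlx, the partner of the carbohydrate response factor ChREBP, was called (-0.35, -0.46, -0.78 and -1.03, mean -0.66, limma adjusted p = 0.0376), and Max, the partner of MYC, had a mean of -0.42 (adjusted p = 0.0448). Myc itself had ratios of -1.44, -0.11, 0.64 and 0.88, which spread over both signs and gave a mean of -0.01 (adjusted p = 0.994). The arrays thus give no direction for Myc.

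Assembly factors outside the name pattern were grouped by subunit. In the small subunit list, 9 of 36 were lower and 1 was higher, Rcl1 (mean 0.38, limma adjusted p = 0.0816), with a median of -0.16. Ngdn (-0.30, -0.89, -1.03 and -1.01, mean -0.81) and Bysl (-0.68, -0.78, -0.54 and -0.65, mean -0.66), both factors of small subunit maturation, were called, with adjusted p of 0.0271 and 0.0109. In the large subunit list, 6 of 46 were lower and none was higher, with a median of -0.12. Ddx31, a nucleolar helicase, was called (-0.30, -0.85, -0.95 and -0.80, mean -0.72, adjusted p = 0.0263), although its probes did not give one value, since the mean over all its probes was -0.46 and was not called. Its ratio was -0.22 in the deposited ratios and -0.26 with Agilent's processed signals, and it was called with neither. Of 12 snoRNP assembly factors, 3 were lower, the helicases Ruvbl1 (-0.34) and Ruvbl2 (-0.28) and Snu13 (-0.34), a further core protein of the box C/D snoRNP.

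Of 22 nucleases that trim rRNA and their partners, 4 were lower and 1 was higher. Rpp38, a subunit of the RNases P and MRP, had the lowest mean of all the lists (-0.71, -1.12, -1.08 and -1.03, mean -0.99 ± 0.19, limma adjusted p = 0.00621). Pop7, a subunit of the same enzymes, was called too (-0.12, -0.62, -0.88 and -1.16, mean -0.69, adjusted p = 0.0675). Xrn2, an exonuclease that trims rRNA and also ends Pol II transcription, was the one called higher gene of these lists (0.52, 0.29, 0.81 and 0.80, mean 0.60, adjusted p = 0.0326).

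**Figure D4:**
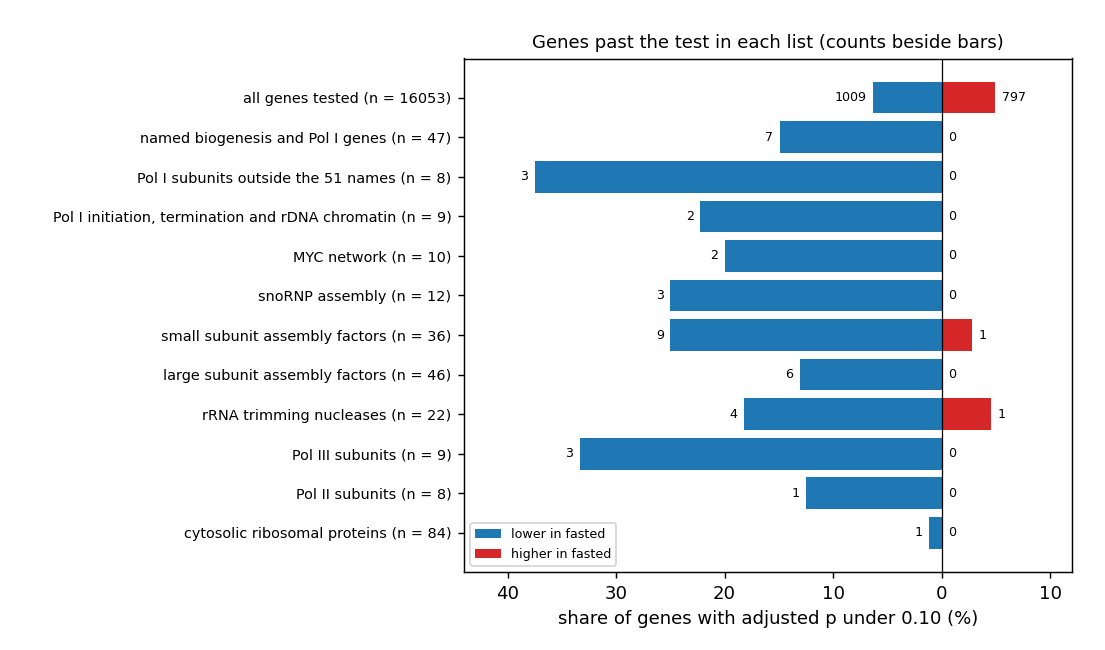
Share of genes in each list (x axis, %) with an adjusted p under 0.10 and a lower (blue, to the left) or higher (red, to the right) level in fasted liver, with the number of genes beside each bar. The share of lower genes was 14.9% for the 47 genes and 6.29% for all genes tested, and 1.19% for cytosolic ribosomal proteins.

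The other RNA polymerases and the ribosomal proteins give the frame for these values. Of 9 subunits of Pol III, 3 were lower (Polr3d, Polr3k and Polr3g, with means of -0.45, -0.40 and -0.39), none of which passed without replicate 3, and of 8 subunits of Pol II, 1 was lower and called, Polr2i (-0.55, -0.75, -0.61 and -0.61, mean -0.63, limma adjusted p = 0.0115), which was called whichever array was left out. Of 84 cytosolic ribosomal protein genes, 66 had means below 0 (78.6%), but their median was -0.04 and their lowest and highest means were -0.31 and 0.27. The 1 gene of this list past the test was Rps19bp1 (mean -0.31, adjusted p = 0.0618), which encodes a partner of a ribosomal protein and entered the list by its name. Without replicate 3 it did not pass, no other gene of the list did, and 58 of the 84 had means below 0 (69.0%). The median of ribosomal protein transcripts thus lay closer to 0 than that of the factors that assemble them. Replicate 2 had the lowest median of these genes, -0.12, and the medians of replicates 1, 3 and 4 were 0.01, -0.04 and -0.01. The difference between ribosomal proteins and assembly factors was not tested.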

How the data were processed

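Total RNA of individual livers, 200 ng each, was labelled and hybridised by the authors to a whole mouse genome oligonucleotide array in a dye swap, and scans were quantified with Feature Extraction (10.10.1.1 per the file headers). The deposited scanner files hold, per spot and dye, the raw median intensity, its local background and an intensity processed by the software. The authors also deposited log2 ratios normalized by loess, whose background step is not given in the sources used here; they were matched to spots by row number, correlated with the ratios used here at r = 0.974 to 0.990 over kept probes, had medians from -0.117 to 0.057, and served as an alternative.

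Median signals of 44397 spots per array were processed with limma 3.58.1 in R 4.3.3. Spots whose local background exceeded 3 times the array's median were left out (0 to 29 per array), as were flagged spots (197 to 322). Background was corrected by normexp (offset 50) and ratios by loess within arrays, without control spots. The offset makes ratios of dim probes smaller. Brightness is the normalised channel intensity with this offset, which was subtracted from each probe only in the sums over acinar markers. Kept probes exceeded background clearly in one group's livers on all 4 arrays (19719 of 39429), and spots of one probe were averaged. Depth has no meaning for arrays, and their number limits the precision.

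The 4 ratios were tested two-sided with lmFit and eBayes across all kept probes with Benjamini-Hochberg adjustment and no dye term. A gene was called by its brightest kept probe at an adjusted p under 0.10 and 1.5-fold. The steps were tested on simulated data. Arrays shared 1 slide and 1 scan. Nothing states that RNA was prepared in batches. The genes, lists, the background limit and the threshold were chosen with earlier results of these data known.

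Genes named in the text were those of the 47 past an adjusted p under 0.10, all Pol I subunits and snoRNP core proteins, Nol3, Myc, Rrn3, Ubtf, and up to 3 called genes each way per list. Others were named after their values were seen. Names came from RefSeq by accession (26055 probes) or symbol (4134), and the 51 names are those of the files. Of genes with a newer name that fits the pattern, Utp4, Utp25, Nop53, Nol4l and Rrp36 were tested but not counted among the 47 (means from -0.16 to 0.10, none past the test). Utp4 and Nop53 were counted in the lists of assembly factors, by their older names. Alternatives covered background, source, normalization, filter, probe choice, dye, test, threshold and leaving out each array.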

Additional observations from a re-analysis of the deposited data

Results flagged for a closer look

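For Nop14, a factor of the small subunit processome, replicate 2 lay far from the other arrays, with a ratio of -0.50 against -0.08, -0.14 and -0.10 on replicates 1, 3 and 4. The gap was 0.847 of the whole range of the 4 ratios and exceeded Dixon's limit for 4 values, and it was the only one of the 47 genes with such a gap. Chance alone gives a flag to about 1 in 20 genes.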

How the results depend on the processing

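The 47 genes gave 2 lower calls and no higher call. Lower calls numbered 0 with normexp on all spots and with separate channels (no replicate block), 4 with plain subtraction and with median centring, 5 with Agilent's processed signals, 7 without a fold limit, and 1 to 4 when an array was left out. The share of all genes called lower moved too, from 2.13% to 0.0934%, 0.218%, 3.57%, 3.35%, 4.38% and 6.29% in the same order, and to between 1.31% and 2.67% with an array left out. No higher call appeared under any alternative, that without a fold limit included. The median of -0.13 became -0.065 with normexp on all spots, -0.20 with plain subtraction, -0.25 with processed signals and -0.22 with median centring, which also moved the median of all genes to -0.06, and stayed between -0.18 and -0.13 under the others. Other genes of ribosome production gave 7 lower and 1 higher calls. These became 0 and 0 with normexp on all spots and with separate channels, 13 and 2 with plain subtraction, 14 and 2 with processed signals, 13 and 0 with median centring and 29 and 2 without a fold limit. The dye term raised the higher calls to 2, and leaving out an array gave 2 to 13 lower and 0 to 1 higher. A dye effect on 8 of the 47 became 2 with normexp on all spots and with median centring, 1 with processed signals, 4 at an adjusted p under 0.05 and 0 to 7 with an array left out. The share of all genes with a dye effect under these alternatives is not given, so these counts show no trait of the 47. The causes of the changes between alternatives were not tested, apart from the fold limit and the stricter p, which act by their own construction. Nop2 was called under 16 of 18 alternatives and Rrp9 under 15. No called gene changed its sign. Signal over background limits the dim genes, and the median brightness of the 47 genes' spots before correction was 275 to 648.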
